A study of Homo sapiens with 18 samples.

Results

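The chromatin around 4 SOX genes, SOX11, SOX2, SOX9 and SOX10, was described from ATAC-seq peaks lying within 100 kb of each gene body in hg19. Of 781454 peaks listed on chromosomes 1 to 22 and X in 18 libraries, 342 fell in these windows: 77 around SOX11, 111 around SOX2, 78 around SOX9 and 76 around SOX10. Overlapping peaks of different libraries were merged into 56 sites, of which 18 were found in 1 library, 18 in at least 9 libraries and 32 in both cell lines. ATAC-seq marks open DNA by the insertion of sequencing adapters with a transposase. The libraries came from Kelly and from BE2C, a clonal line, both established human neuroblastoma lines, in a study whose title names AhR and MYCN-amplified disease. Cells of each line were transduced with lentivirus carrying the empty vector pLKO or 1 of 2 short hairpins against AHR, named shAhR-1 and shAhR-2, so the control cells had also been through viral transduction. AHR encodes the aryl hydrocarbon receptor, a ligand-activated transcription factor, and its level in these cells was not analysed here. Each of the 6 groups had 3 libraries, and the labels speak of triplicates without saying whether they came from separate cultures or transductions, so the spread that the p-values use could be technical.

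SOX proteins are transcription factors that bind DNA through an HMG box and bend it. SOX11, of the SOXC group, acts in maturing neurons and sympathetic neuroblasts. SOX2, of the SOXB group, maintains pluripotent and neural stem cells. SOX9 and SOX10 belong to the SOXE group and act in the neural crest, from which the sympathetic lineage of neuroblastoma arises; SOX10 goes on to specify Schwann cells and other glia, and SOX9 also acts in cartilage. In these windows the RefSeq gene table (GRCh38.p14, used for names only) places the long non-coding genes LINC01248 near SOX11, SOX2-OT around SOX2, and ROCR, SOX9-AS1 and LINC01152 near SOX9. The SOX10 window is shared with protein-coding genes, among them EIF3L, MICALL1, POLR2F, PICK1 and SLC16A8, so a distal peak there need not belong to SOX10. The start sites of these neighbours, and the marker genes of neuroblastoma, were not placed on hg19 here.

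The promoters of SOX2 and SOX9 had a peak in all 18 libraries. The promoter window of SOX2 is shown because it was the 1 SOX promoter matched in the RefSeq promoter sequences used here. RefSeq gives it on GRCh38.p14 as the plus strand of chr3:181711675-181711974, from 250 bases before to 50 after the gene's start, and the hg19 peak positions below were not carried over to this build. Capitals mark the letters of ACAAAG, a short motif of the kind SOX proteins bind, of GGGCGG on the minus strand, the GC box, and of CCAAT on the minus strand.
SOX2 promoter: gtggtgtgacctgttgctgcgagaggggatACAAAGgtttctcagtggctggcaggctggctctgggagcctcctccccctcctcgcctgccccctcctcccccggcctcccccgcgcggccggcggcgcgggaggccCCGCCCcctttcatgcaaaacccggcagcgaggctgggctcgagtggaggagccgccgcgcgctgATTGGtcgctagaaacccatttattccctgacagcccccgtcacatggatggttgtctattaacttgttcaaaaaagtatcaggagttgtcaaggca
The stretch had a GC content of 63.3%, against a median of 58.7% over 35116 promoters of the same length. The 3 matches began 220, 112 and 47 bases before the start. Searched on both strands, ACAAAG occurred in 16.1% of all promoters, GGGCGG in 45.0% and CCAAT in 34.6%. The letters GCGTG, the core of the AHR response element (36.5% of promoters), CACGTG, an E-box (7.26%), and ACAATG (10.8%) had no match in this window.

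The lists differed greatly in length, and this bears on every count below. They held between 9204 peaks (replicate 1 of Kelly shAhR-1) and 65740 in Kelly and between 25660 and 81637 in BE2C, and the 6 shAhR-2 libraries were the 6 longest. The background reads of the genome were also higher in shAhR-2, at 2.56 to 4.42 overlapping reads against 0.601 to 1.92 in the other libraries, so depth and the shAhR-2 label cannot be told apart. In full lists a library held between 4 (replicate 1 of Kelly shAhR-1) and 36 peaks over the 4 windows, with at least 27 in each shAhR-2 library and at most 21 in every other. Comparisons were therefore made on lists cut to equal length, strongest peaks first by −log10 p, or on summit pileups scaled to the library.

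**Figure D1:**
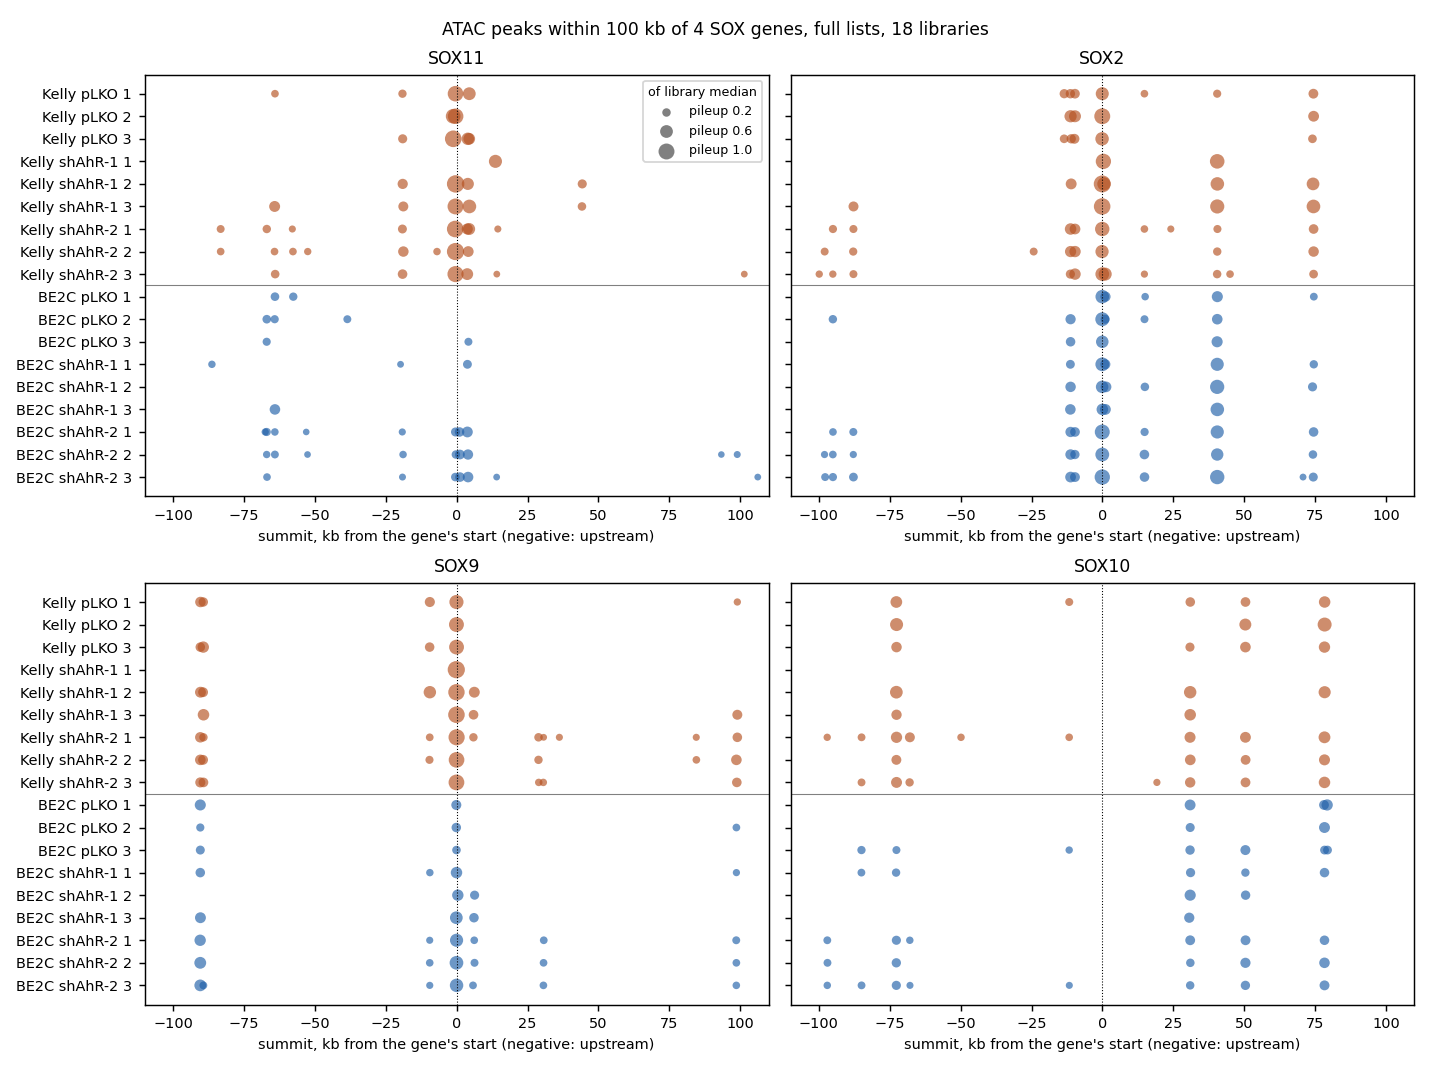
Map of all 342 peaks by library (rows, Kelly above BE2C) and by distance of the summit from the gene's start in kb along the direction of transcription (negative is upstream); the area of a point grows with the summit pileup over the library median. Peaks stand at the start of SOX2 and SOX9 in all 18 rows, at the start of SOX11 in 8 Kelly and 3 BE2C rows, and at the start of SOX10 in none.

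The promoters, taken as 1 kb on either side of the start, separated the 4 genes. SOX2 and SOX9 had a promoter peak in all 18 libraries. SOX11 had one in 8 of 9 Kelly libraries and in 3 of 9 BE2C libraries, and the Kelly library without one was replicate 1 of shAhR-1, whose list is the shortest. SOX10 had none in any of the 18 libraries. The peak nearest to its start, 11604 to 12032 bases upstream at chr22:38392143-38392571, was listed in 4 libraries (1 each of Kelly pLKO, Kelly shAhR-2, BE2C pLKO and BE2C shAhR-2) with folds over local background of 2.86 to 3.88. A peak list gives no value where the caller found no peak, so the SOX10 start is described as without a listed peak and not as closed.

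To compare heights, the pileup (reads overlapping at the summit) was solved from each peak's deposited fold and p-value and divided by the library's median over 6074 sites found and solved in all 18 libraries. This scaled pileup is relative to those common sites, which are among the stronger sites of every library. Of the 56 SOX sites, the promoters of SOX2 and SOX9 were the 2 common ones.

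The SOX9 promoter, at chr17:70116299-70118266, spanned 862 bases upstream to 1105 bases downstream of the start. In Kelly its scaled pileup was 0.762, 0.857 and 0.850 with pLKO, 1.18, 1.06 and 1.09 with shAhR-1 and 1.03, 0.959 and 0.974 with shAhR-2. In BE2C it was 0.327, 0.279 and 0.208 with pLKO, 0.462, 0.455 and 0.594 with shAhR-1 and 0.645, 0.709 and 0.677 with shAhR-2. Every Kelly library was above every BE2C library, and within each line every hairpin library was above every pLKO library.

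Kelly exceeded BE2C at the SOX9 promoter 2.15-fold, a log2 difference of 1.11 with a mean of −0.05 ± 0.20 (SD, n = 9) in Kelly and −1.16 ± 0.63 (SD, n = 9) in BE2C. The exact permutation test with line labels exchanged within condition gave p = 0.00025, the smallest its 8000 arrangements allow, and an adjusted p of 0.00133 over the 6074 common sites. By this test 27.6% of the common sites were higher in Kelly, and the SOX9 difference lay at the 98.2 percentile of all of them. The means of the lines were 0.823 ± 0.053 against 0.271 ± 0.060 with pLKO, 1.11 ± 0.063 against 0.503 ± 0.078 with shAhR-1 and 0.989 ± 0.039 against 0.677 ± 0.032 with shAhR-2 (Kelly before BE2C; SD, n = 3 each).

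With shAhR-2 the SOX9 promoter rose over pLKO by 0.80 on the log2 scale, averaged over the lines, which is 1.75-fold. The difference was 0.27 in Kelly and 1.34 in BE2C. The exact permutation test with labels exchanged within line gave p = 0.005, the smallest its 400 arrangements allow, and an adjusted p of 0.0241; 14.9% of common sites were called higher with shAhR-2. With shAhR-1 the log2 difference was 0.67 (0.43 in Kelly, 0.90 in BE2C), and its exact permutation p of 0.005 became 0.108 after adjustment. With shAhR-1 no common site passed after adjustment (0.0% called), while 1263 of 6074 had an unadjusted exact p of at most 0.05. The 2 hairpins were compared with the same pLKO libraries. The log2 effect of shAhR-2 was smaller in Kelly than in BE2C; taken as 0.5 of that difference, −0.54, it had an exact permutation p of 0.1 and an adjusted p of 0.367, and the like value for shAhR-1, −0.24, had an adjusted p of 0.954 by the same exact test. Within 1 line, 3 libraries against 3 cannot go below p = 0.1 in an exact test.

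The unscaled values behind these ratios were small in some libraries. The SOX9 summit pileup was 17, 17 and 20 reads in replicates 1 to 3 of BE2C pLKO and 13 reads in replicate 1 of Kelly shAhR-1, against 100, 112 and 109 reads in BE2C shAhR-2. The median pileup of common sites was 52 to 96 reads in BE2C pLKO and 155 to 161 reads in BE2C shAhR-2. Depth therefore moved with the shAhR-2 increase, and its part in the result was not tested beyond the scaling.

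The SOX2 promoter, at chr3:181428983-181431106, reached from 729 bases upstream to 1394 bases downstream of the start, and so over much of the short gene. Its scaled pileup in Kelly was 0.631, 1.00 and 0.683 with pLKO, 0.909, 1.16 and 1.09 with shAhR-1 and 0.795, 0.653 and 0.711 with shAhR-2. In BE2C it was 0.692, 0.738 and 0.573 with pLKO, 0.718, 0.568 and 0.469 with shAhR-1 and 0.865, 0.722 and 0.913 with shAhR-2. The ranges of the lines overlapped in pLKO and in shAhR-2 and not in shAhR-1, where all Kelly values were higher. How many of the common sites separate in this way with shAhR-1 was not counted.

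None of the SOX2 promoter differences passed the exact permutation tests. Kelly exceeded BE2C by 0.28 on the log2 scale (adjusted p = 0.153, exact). The mean over lines was 0.13 for shAhR-1 over pLKO (adjusted p = 0.687, exact) and 0.12 for shAhR-2 over pLKO (adjusted p = 0.498, exact). With shAhR-1 the direction differed between the lines, at 0.47 in Kelly and −0.20 in BE2C; 0.5 of that difference, 0.34, had an exact permutation p of 0.065 and an adjusted p of 0.730.

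The SOX11 promoter peak was high in Kelly and low or unlisted in BE2C. In Kelly the peak over the start, at chr2:5831000-5833155, had a scaled pileup of 0.952, 0.943 and 1.10 with pLKO, 1.22 and 1.00 in the 2 shAhR-1 libraries that listed it, and 1.10, 1.18 and 1.03 with shAhR-2. In BE2C no pLKO or shAhR-1 library listed a promoter peak. The 3 BE2C shAhR-2 libraries had small peaks there, at 0.245, 0.203 and 0.211, and a somewhat higher peak of their own 622 to 1343 bases downstream of the start, at 0.284, 0.304 and 0.292. The lowest Kelly value was thus over 3 times the highest BE2C value where both exist, and folds over local background were 3.72 to 5.97 in Kelly and 2.69 to 3.25 at the stronger BE2C peak.

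**Figure D2:**
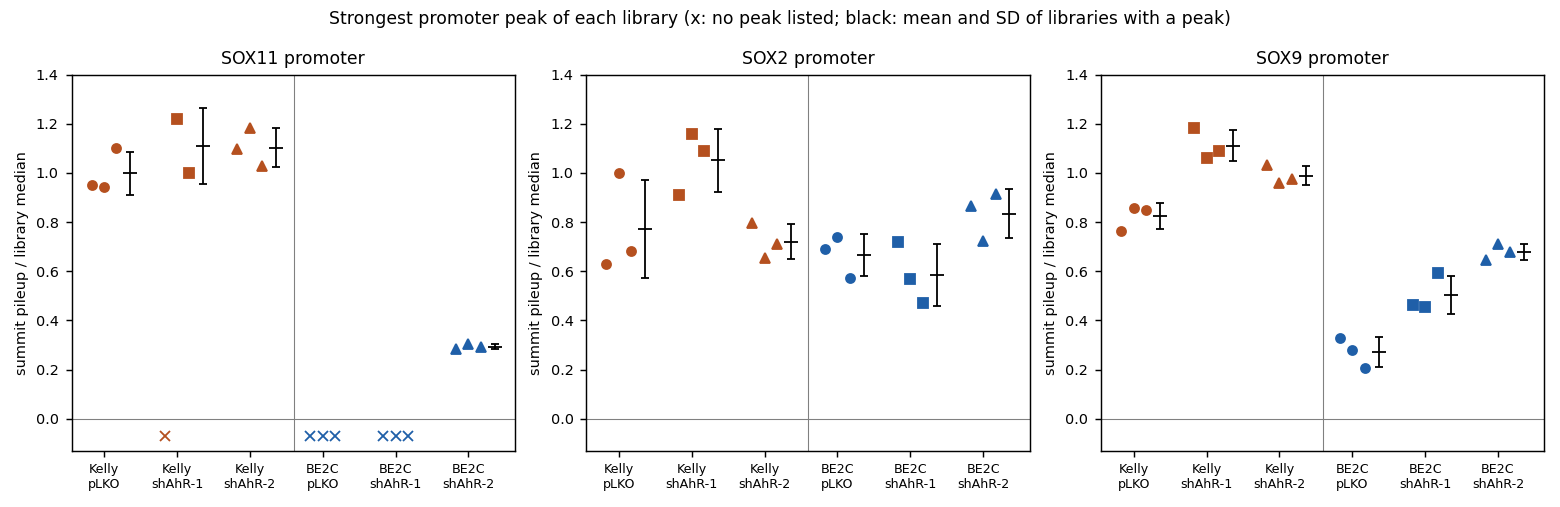
Summit pileup of the strongest promoter peak of SOX11, SOX2 and SOX9 in each library, divided by the library's median over common sites (no unit), by line and condition; crosses mark libraries with no listed peak and black bars show the mean and SD of libraries with one. SOX9 is higher in every Kelly library than in any BE2C library, SOX11 has crosses in all pLKO and shAhR-1 libraries of BE2C, and the SOX2 groups lie between 0.469 and 1.16.

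Lists of equal length gave a test for presence. When all 18 lists were cut to 9204 peaks, the SOX9 promoter was kept in 9 of 9 Kelly and 0 of 9 BE2C libraries (exact permutation p = 0.00025, adjusted p = 0.0198 over 19921 sites). It was the 1 site called among 6 SOX sites at that length; 0.959% of all sites were called as more frequent in Kelly and 1.89% in BE2C. The SOX11 promoter was then kept in 3 Kelly libraries and in no BE2C library (adjusted p = 0.907, exact). When replicate 1 of Kelly shAhR-1 was left out and the other 17 lists were cut to 19984 peaks, the SOX11 promoter was kept in 8 of 8 Kelly and 0 of 9 BE2C libraries (exact p = 0.00025, adjusted p = 0.0117). At that length the SOX9 promoter was kept in 8 of 8 Kelly and 6 of 9 BE2C libraries, which did not pass (adjusted p = 0.398, exact). Of 21 SOX sites the SOX11 promoter was the 1 called, 7 had an unadjusted exact p of at most 0.05, and 1.9% of all sites were called as more frequent in Kelly and 3.21% in BE2C. In full lists none of the 56 SOX sites was called by the same exact test, 2 had an unadjusted p of at most 0.05, and 0.564% of all sites were called in either direction. Each call between lines thus held at 1 of these 3 list lengths.

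The local background, the read density that the caller set around each peak, was also solved from fold and p, and was raised at the promoters. At the strongest SOX11 promoter peak it was 4.25 to 11.7 times the genome-wide background of the library in Kelly and 3.81 to 4.39 times in BE2C shAhR-2. Away from the start, the SOX11 sites had a median of 1.23 times in Kelly and 1.42 times in BE2C. At the gene-body site 3.23 to 4.77 kb from the start the local background was as high as 10.8 times in Kelly. The stretch over which the caller takes this density is not given, so the reads of the nearby promoter may count there as well. At the SOX2 promoter the local background was 1.77 to 5.31 times and at the SOX9 promoter 1.56 to 6.84 times the genome-wide level, with overlapping ranges for the lines at SOX2 (2.17 to 5.31 in Kelly, 1.77 to 4.93 in BE2C) and at SOX9 (2.36 to 6.84 in Kelly, 1.56 to 4.63 in BE2C). By construction a high local background lowers the fold and the rank of a peak in the list: at the SOX11 promoter of Kelly the median fold was 4.26, against 5.94 at SOX9, although the median scaled pileup of SOX11, 1.06, was not below that of SOX9, 0.974.

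**Figure D3:**
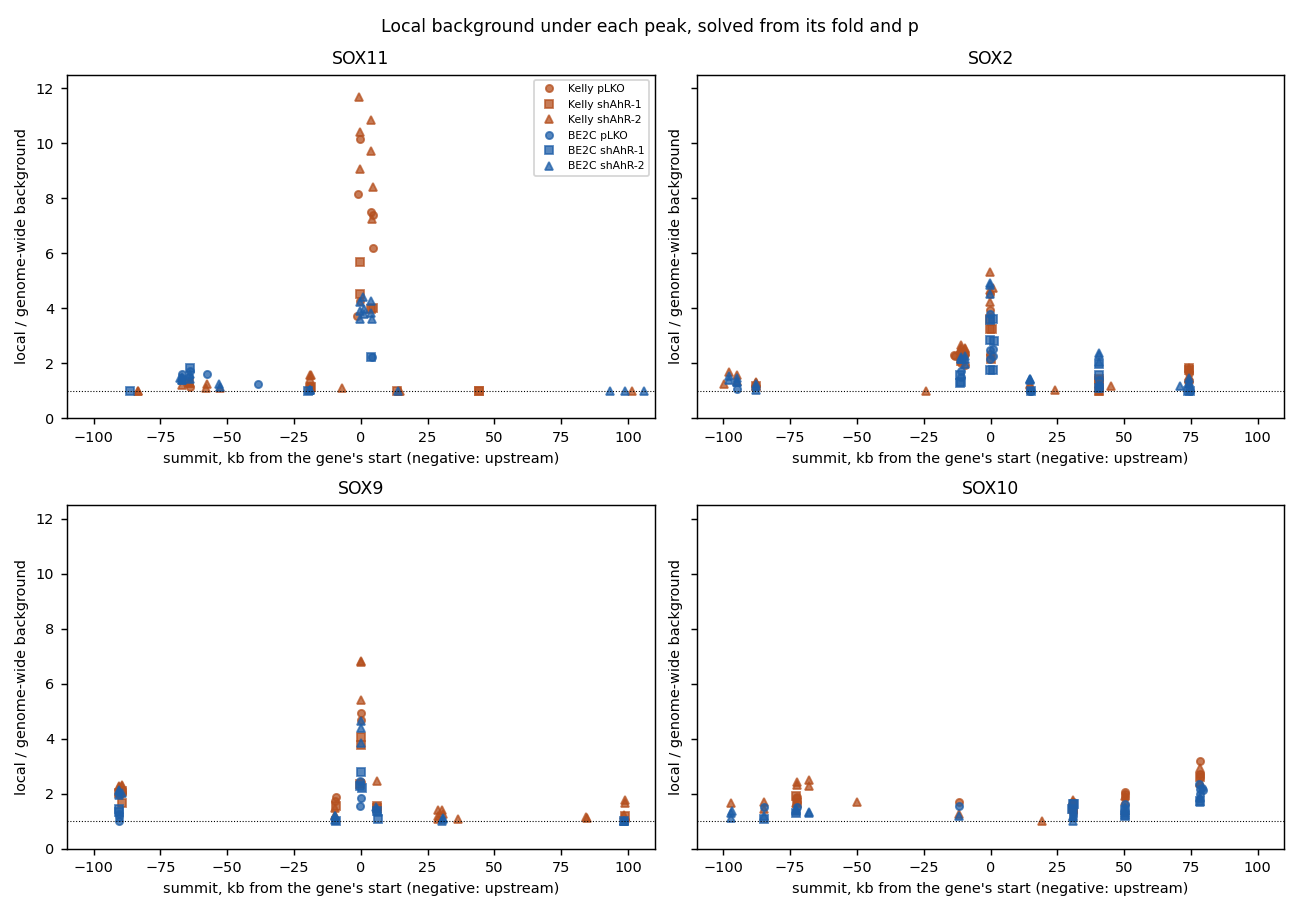
Local background under each peak divided by the library's genome-wide background (no unit) against the distance of the summit from the gene's start in kb, by line (colour) and condition (marker). The values rise near the start of SOX11 to 11.7 in Kelly and stay at or below 3.20 throughout the SOX10 window.

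Distal sites were numerous around every gene and mostly weak. Upstream of the promoter lay 12 of the 21 SOX11 sites, 8 of the 15 SOX2 sites, 3 of the 10 SOX9 sites and 6 of the 10 SOX10 sites. Of the 56 sites 24 were listed in shAhR-2 libraries only, and these libraries have the longest lists. Around SOX11 lay 10 of them, around SOX2 6, around SOX9 4 and around SOX10 4. The share of all sites listed in shAhR-2 libraries only was not counted.

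Near SOX2 the most widely shared distal site lay 40.0 to 40.9 kb downstream of the start, at chr3:181469709-181470613, in 7 of 9 Kelly and 9 of 9 BE2C libraries. Its scaled pileup in Kelly was 0.179 in 1 pLKO library and unlisted in the other two, 0.818, 0.688 and 0.765 with shAhR-1, and 0.172, 0.194 and 0.202 with shAhR-2. In BE2C it was 0.423, 0.377 and 0.427 with pLKO, 0.641, 0.773 and 0.688 with shAhR-1 and 0.645, 0.557 and 0.789 with shAhR-2. Kelly shAhR-1 thus stood at the level of the BE2C hairpin libraries, and the 4 other Kelly libraries that listed the site stood below all of BE2C. In BE2C all hairpin libraries were above all pLKO libraries. How many of all sites separate in these ways was not counted. In replicate 1 of Kelly shAhR-1 the value rests on 9 reads, scaled by a library median of 11 reads.

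In Kelly lists cut to 9204 peaks and BE2C lists cut to 25660, that site was the 1 SOX site gained or lost with a hairpin. In Kelly it was kept, as chr3:181469989-181470410, in 3 of 3 shAhR-1 and 0 of 3 pLKO libraries, and in 0 of 3 with shAhR-2. Of all Kelly sites, 1.33% were gained in this way with shAhR-1 and 2.94% were gained or lost, so 1 gain among 6 SOX sites is a small count, and 3 libraries against 3 allow no exact p below 0.1. Without replicate 1 of that group it was kept in 2 of 2 shAhR-1 and 0 of 3 pLKO libraries, at 19984 peaks. Between lines at that length, it was kept in 2 of 8 Kelly and 9 of 9 BE2C libraries, short of the threshold (exact p = 0.005, adjusted p = 0.0641).

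Of the other SOX2 sites, the one 10.7 to 11.6 kb upstream was listed in 15 libraries with scaled pileups of 0.231 to 0.543. The site next to it, 9.49 to 10.1 kb upstream, was listed in all pLKO and shAhR-2 libraries of Kelly and in none with shAhR-1. In BE2C it was listed in the 3 shAhR-2 libraries and in no pLKO or shAhR-1 library. The share of all sites with this pattern was not counted. The site 73.9 to 75.0 kb downstream was listed in 14 libraries, 8 of Kelly and 6 of BE2C. At 19984 peaks it was kept in 5 of 8 Kelly and 0 of 9 BE2C libraries (adjusted p = 0.105, exact).

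Near SOX11 the most shared distal sites lay in or close to the gene body and 18.6 to 19.5 kb upstream. The gene-body site, 3.23 to 4.77 kb from the start, was listed in 7 Kelly and 5 BE2C libraries, with median scaled pileups of 0.531 and 0.354. The upstream site, at chr2:5813299-5814208, was listed in 7 Kelly libraries at 0.190 to 0.367 and in the 3 BE2C shAhR-2 libraries at 0.0994 to 0.133. The line ranges thus did not overlap among libraries that listed it, and how many of all sites separate in this way was not counted. At 19984 peaks this upstream site was kept in 4 of 8 Kelly and 0 of 9 BE2C libraries (adjusted p = 0.181, exact). The site 63.9 to 64.4 kb upstream was listed in 4 Kelly and 5 BE2C libraries.

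Near SOX9 the site 89.8 to 90.9 kb upstream, at chr17:70026310-70027384, was listed in 6 Kelly and 8 BE2C libraries. Its scaled pileup was 0.283 to 0.406 in Kelly and 0.180 to 0.5 in BE2C, so the lines overlapped there while they were apart at the promoter. Its neighbour, 89.1 to 89.6 kb upstream, was listed in 7 Kelly libraries and 1 BE2C library (exact p = 0.016, adjusted p = 0.338 in full lists). The sites 9.24 to 9.79 kb upstream and 98.2 to 99.5 kb downstream were listed in 9 and 10 libraries.

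Near SOX10 the most shared sites lay 30.4 to 31.5 kb downstream of the start (16 libraries), 77.7 to 79.7 kb downstream (14 libraries) and 72.4 to 73.2 kb upstream (13 libraries). The gene body is 12221 bases long and held no listed peak, so all 10 sites of this window lay outside the gene. At the upstream site, chr22:38452945-38453756, the scaled pileup was 0.316 to 0.629 in 8 Kelly libraries and 0.167 to 0.266 in 5 BE2C libraries. The ranges did not overlap among libraries that listed the site. How many of all sites separate in this way was not counted, and 27.6% of common sites were called higher in Kelly. At 19984 peaks the site was kept in 6 of 8 Kelly and 0 of 9 BE2C libraries, short of the threshold (exact p = 0.004, adjusted p = 0.0622). The site 50.2 to 50.7 kb downstream, at chr22:38329832-38330375, was listed in all pLKO and shAhR-2 libraries of Kelly and in none with shAhR-1. In BE2C it was listed in 1 pLKO, 2 shAhR-1 and 3 shAhR-2 libraries. The share of all sites with the Kelly pattern was not counted, and replicate 1 of Kelly shAhR-1 listed no peak in the SOX10 window. In Kelly lists of 19984 peaks, without that replicate, the site was lost (0 of 2 against 3 of 3). It was 1 of 2 SOX sites among 20 that changed with shAhR-1, where 5.38% of all sites did.

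**Figure D4:**
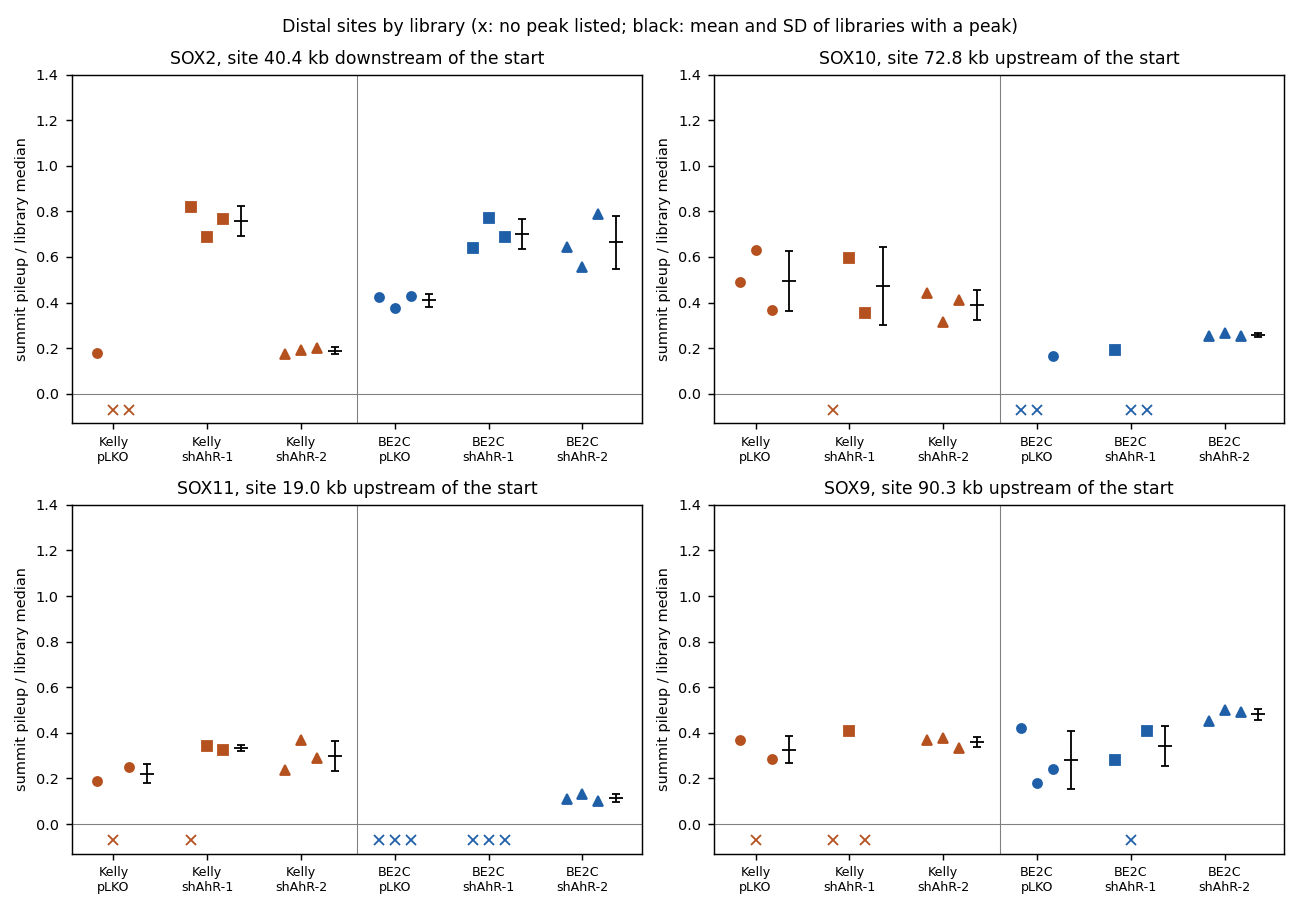
Summit pileup over the library median (no unit) at 4 distal sites by line and condition; crosses mark libraries with no listed peak and black bars show the mean and SD of libraries with one. At the SOX2 site Kelly shAhR-1 lies at 0.688 to 0.818 and the other Kelly libraries with a listed peak at or below 0.202, and at the SOX10 site every listed Kelly value is above every BE2C value.

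No SOX site was gained or lost with shAhR-2 in Kelly, where 5.73% of all sites were, or 7.52% without replicate 1 of shAhR-1 and at the greater length. In BE2C lists of 25660 peaks none of 14 SOX sites was gained or lost with shAhR-1 (3.06% of all sites) or shAhR-2 (6.79% of all sites). These counts come from the rule of all libraries against none, with no test.

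Peak numbers per window were compared at equal list length against 200-kb tiles of the genome. At 9204 peaks per library the SOX9 window held 1 peak in each of the 9 Kelly libraries, the promoter, and none in any of the 9 BE2C libraries (exact permutation p = 0.00025, adjusted p = 0.00652 over 6003 windows, of which 7.03% had more peaks in Kelly). The SOX2 window held 0.889 ± 1.17 peaks per Kelly library and 1.22 ± 0.667 per BE2C library (SD, n = 9; adjusted p = 0.933, exact). The SOX11 window held 0.444 ± 0.527 peaks per Kelly library and no peak in BE2C, and the SOX10 window held none in any library. Both had a mean under 0.5 peaks over all libraries and were not adjusted.

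At 19984 peaks, without replicate 1 of Kelly shAhR-1, the SOX11 window held 1 to 4 peaks in each of 8 Kelly libraries and none in 9 BE2C libraries (exact p = 0.00025, adjusted p = 0.00394). The SOX10 window held 3.12 ± 0.991 peaks per Kelly library (SD, n = 8) and 1.11 ± 0.928 per BE2C library (SD, n = 9), an exact p of 0.00075 and an adjusted p of 0.00754. At this length 11.8% of windows had more peaks in Kelly. The SOX2 window, with 3.25 ± 0.886 against 2.44 ± 0.527 peaks (adjusted p = 0.0639, exact), and the SOX9 window, with 2.38 ± 0.744 against 1.22 ± 0.833 peaks (adjusted p = 0.0627, exact), did not pass. The SOX11 and SOX10 windows thus passed at this length and SOX9 at the shorter one. The SOX10 window is shared with other protein-coding genes and had no listed peak at the SOX10 promoter or in the gene body. Its line difference therefore need not belong to SOX10. All 4 window means were higher in Kelly at 19984 peaks. The share of all windows with a higher Kelly mean is not given here. At the shorter length the SOX2 mean was lower in Kelly, at 0.889 against 1.22 peaks in BE2C.

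**Figure D5:**
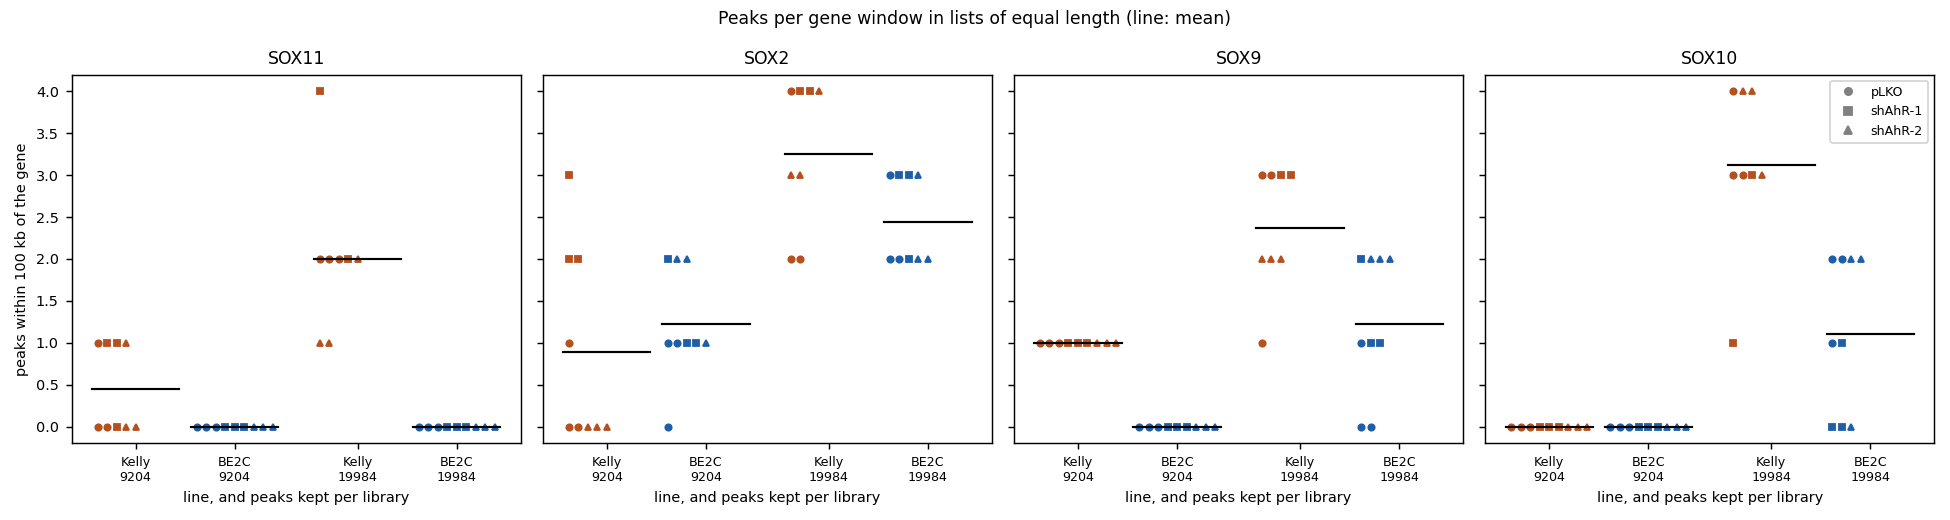
Number of peaks within 100 kb of each gene in lists cut to 9204 peaks (9 libraries a line) and to 19984 peaks (8 Kelly and 9 BE2C libraries), 1 point per library, with the mean as a line. At 9204 peaks SOX9 separates the lines at 1 against 0, and at 19984 peaks SOX11 separates them at 1 to 4 against 0.

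For the hairpins each list was cut to the shortest of its line, 9204 peaks in Kelly and 25660 in BE2C, and no effect on peak numbers passed for any of the 4 windows. With shAhR-1 the SOX2 window held 3.00 ± 1.26 peaks against 1.67 ± 1.51 with pLKO over both lines (SD, n = 6; exact p = 0.065, adjusted p = 1). In Kelly this was 2 to 3 peaks against 0 to 1. The SOX9 window in BE2C held 1 peak in each pLKO library, 2 to 3 with shAhR-1 and 2 in each shAhR-2 library, at the 25660 peaks kept per BE2C library. In Kelly, at 9204 peaks per library, it held 1 peak in all 9. The lengths differ, so these counts do not compare the lines. How many of all windows separate within 1 line, as SOX2 did in Kelly and SOX9 in BE2C, was not counted. Over both lines the SOX9 difference was 0.667 peaks for shAhR-1 (exact p = 0.1, adjusted p = 1) and 0.5 peaks for shAhR-2 (exact p = 0.1, adjusted p = 0.506). SOX11 and SOX10 differed by at most 0.333 peaks on average. In the genome 0.0% of 8863 windows passed for shAhR-1 and 0.0% of 8843 for shAhR-2, with 377 and 744 windows at an unadjusted exact p of at most 0.05.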

How the data were processed

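Per the labels' protocols, ATAC-seq was run on 50K cells per library. Per the submitters' processing notes MACS2 2.1.0, BWA 0.7.17, Trimmomatic 0.33, deepTools 3.1.3 and CASAVA 1.8.2 were used with hg19. Settings, duplicate removal and transposase shift are not given in sources used here. The deposited files were 1 peak list per library with a score, a fold (a linear ratio), a −log10 p-value and a −log10 q-value set by the authors' caller for each peak; the highest q-value was 0.05. The score was not used here.

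Peaks outside chromosomes 1 to 22 and X were left out (at most 0.83% of a list). Members and lists were chosen with earlier results of these data known. Pileup k and background λ were solved from fold = (k + 1)/(λ + 1) and a Poisson tail, keeping k within 0.05 of a whole number (96.3% of peaks in replicate 1 of Kelly shAhR-1, at least 99.6% in every other library). Exact two-sided permutation tests had Benjamini-Hochberg adjustment over all windows (mean of at least 0.5 peaks) or sites, with a threshold of 0.05; presence was an overlap of at least 1 bp. Sites named in full were each promoter, up to 3 distal sites per gene in the most libraries, and those called; further sites were chosen after their values were seen, as were the pileup tests and the list length of 19984. No hg19 gene annotation was used, so related gene lists and genes of similar pattern were not analysed here. Functions were tested on simulated data (Python 3.11.15, numpy 2.4.6, pandas 2.3.3, SciPy 1.17.1). The lists carry no total read number; list length and pileup set the precision.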

Additional observations from a re-analysis of the deposited data

How the results depend on the processing

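List length limited every comparison of presence. At the full lists, per 10000 listed peaks, the Kelly minus BE2C difference was 0.644 for the SOX11 window, now past the threshold. For SOX2 it was 0.429, where the sign turned and the difference passed (exact p = 0.0118, adjusted p = 0.0413). So small an adjustment means that many windows passed at this setting, a share not given here. BE2C lists were mostly longer than Kelly lists of the same condition, and the part of the division by length was not tested. The SOX2 difference also turned with empty-vector libraries only (0.333). With lists shortened by fold enrichment, the SOX9 difference fell to 0, and with empty-vector libraries only it was 2 (exact p = 0.2), where 3 against 3 cannot pass. Leaving out 1 library at a time, the differences were 0.333 to 2.11 peaks for SOX11, −0.444 to 0.889 for SOX2, 1 to 1.22 for SOX9 and 0 to 1.89 for SOX10; the upper ends for SOX11, SOX2, SOX9 and SOX10 are those without replicate 1 of Kelly shAhR-1, which lengthens the lists. Without any other Kelly library the SOX9 window had a mean under 0.5 peaks and so no adjusted p, at an unchanged exact p of 0.00025.

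For the hairpins, the SOX2 difference with shAhR-2 was −0.271 per 10000 listed peaks. The covered length at SOX9 rose by 1.35 kb with shAhR-2 (exact adjusted p = 0.0474), and the cause was not tested. The share of all windows that passed on covered length is not given here. On that measure the exact p of 0.15 at SOX2 became 0.218 after adjustment, so low p-values were common over all windows. SOX sites called between lines were 0 of 34 at a −log10 q of at least 5, 0 when peaks had to cover 50% of a site, 0 in full lists, and 1 without each library in turn. SOX sites changed with a hairpin at a −log10 q of at least 5 were 3 of 29 with shAhR-1 in Kelly, all lost (1.44% of all sites changed), 2 of 29 with shAhR-2 in Kelly, both gained (15.6% of all sites), and 10 of 28 with shAhR-2 in BE2C, all gained (19.3% of all sites). On lists cut to the shortest of each line, a looser rule took at least 2 of 3 against none, or 3 of 3 against at most 1. SOX sites changed were then 2 of 6 for shAhR-1 in Kelly (14.1% of all sites). In BE2C they were 2 of 14 for shAhR-1 (13.2%) and 3 of 14 for shAhR-2 (18.5%). With 50% cover on the cut lists there were 2 of 14 for shAhR-2 in BE2C (10.9%). Leaving out 1 library at a time gave 1 to 2 of 5 to 20 SOX sites for shAhR-1 in Kelly (3.81 to 5.55% of all sites changed). In BE2C, of 13 to 14 SOX sites, it gave 0 to 1 for shAhR-1 (4.37 to 5.68%) and 0 to 2 for shAhR-2 (7.26 to 9.74%).

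The SOX9 promoter pileup kept its call between lines (log2 1.02 to 1.16) and with shAhR-2 (log2 0.69 to 0.88) without each library and with quantile normalization. Libraries with the same replicate number did not deviate together (mean r of −0.013 over 45 pairs against 0.007 over 90 pairs with different numbers), and 4 of 18 libraries matched their own number best. With a replicate block the SOX9 window kept its difference of 1 peak (exact adjusted p = 0.0791), no SOX site was called between lines (0), and the SOX9 promoter rise with shAhR-2, 0.80 on the log2 scale, had an exact adjusted p of 0.109; the smallest exact p the block allows is 0.0039 between lines and 0.031 for a hairpin. The block changed no other call at these settings; it was not run on the lists of 19984 peaks.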
